A study of Caenorhabditis elegans with 8 samples.

Results

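Small heat shock proteins are the small, ATP-independent chaperones of the cell, and the nematode Caenorhabditis elegans has many of them. Their expression was followed here in 10 of the 18217 genes that the array annotation names, hsp-16.2, hsp-16.41, hsp-16.48, hsp-12.1, hsp-12.2, hsp-12.3, hsp-12.6, hsp-25, hsp-43 and sip-1. The members were the probe sets annotated to these genes, and a probe set shared among hsp-16 genes counted as well. This gave 11 probe sets of 22548, since sip-1 has 2 and hsp-16.48 shares its own with hsp-16.49.

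RNA was measured on Affymetrix C. elegans GeneChips, 1 array for each pool of animals, in 3 pools of embryos, 3 of young adults and 2 of aging adults. All of them carried the temperature-sensitive mutation glp-1(q224) III (strain JK1107), and no wild type was profiled. Embryos of mixed stages were released with bleach and sodium hydroxide from mothers kept at 15°C, in pools of about 5000. Adults came from pools of 3000 to 5000 animals that hatched at 20°C and were raised at 25°C, where the mutant germ line does not proliferate. Young adults were taken 24 hours after the L4 molt (day 1) and aging adults at day 6, having been moved to fresh plates every 2 days. These are the values of the sample labels, and other descriptions of the study differ from them on pool size, on the mothers' temperature and on how often adults were moved. Life stage, temperature and the way the animals were collected cannot be told apart between embryos and adults. A whole pool was ground up, so that fewer cells of a type and less RNA per cell cannot be told apart either. Nothing beyond separate pools is stated about the replicates, and p values measure the spread between these pools.

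Small heat shock proteins share the alpha-crystallin domain with the lens protein of that name. They bind unfolding proteins, keep them from aggregating, and hand them to HSP70, which refolds them at the cost of ATP. The hsp-16 genes are the classic heat-inducible genes of the nematode, switched on by the heat shock factor HSF-1 through heat shock elements between divergently transcribed gene pairs. Other members are expressed without stress: HSP-25 sits at the dense bodies and M lines of muscle, HSP-43 in the uterus, spermathecal valve and vulva, and SIP-1 in oocytes and embryos. HSP-12 proteins are the smallest, and hsp-12.6 is known as a target of the insulin pathway factor DAF-16.

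Intensities are given as deposited, linear and with background subtracted, and are not comparable between genes. The noise level of an array, taken as the 95th percentile of how far its negative values lay below 0, was between 24.4 and 35.0. Array medians lay lowest in young adults, at 19.1 to 21.9, which is below their noise level. They were 32.4 to 36.9 in aging adults and 56.2 to 64.2 in embryos. For tests, each array was divided by its median (the normalized expression) and log2 values were fitted with limma. An adjusted p under 0.05 over all 22548 probe sets counted as past the test. Where a group had no array above noise, the fold against it is a lower bound, written as "at least". Spearman's correlation across probe sets was 0.972 to 0.976 between embryo arrays and 0.964 between aging adult arrays. Young adult replicate 3 correlated less with young adult replicates 1 and 2 (0.917 and 0.919) than these did with each other (0.939).

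From young to aging adults, hsp-12.1, hsp-12.2 and hsp-25 fell relative to the array median, and no member rose past the test. Thus 0 of 11 probe sets were higher, where 2.94% of all probe sets were, and 3 were lower, where 4.49% were. These 3 calls depended on the processing. Without rescaling 0 were lower (1.97% of all were), and with only the 2 groups compared 0 were (1.92% of all were). The median log2 fold change of the members was 1.14, against 0.02 for all probe sets, and this median is the value of hsp-16.2, which did not pass the test. Embryos differed from young adults in 7 of 11 probe sets, where 53.1% of all probe sets did: 3 were higher in embryos (22.7% of all were) and 4 were lower (30.4% of all were). The higher ones were sip-1, on both its probe sets, and hsp-12.1, and the lower ones were hsp-12.3, hsp-25, hsp-43 and hsp-12.2, of which hsp-12.2 turned to higher without rescaling (0.81, adjusted p = 0.0143) and under quantile normalization (0.71, adjusted p = 0.0626). Against aging adults 5 differed, where 44.3% of all did: the same 3 probe sets were higher in embryos (17.7% of all were), and hsp-25 and hsp-43 were lower (26.6% of all were).

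Among young adult pools the heat-inducible hsp-16 genes lay further apart, on the log2 scale, than the means of young and aging adults did. The gene hsp-16.2 (Y46H3A.3, chromosome V) had intensities of 49.8, 105.2 and 996 in young adults, 426 and 969 in aging adults, and 1083, 715 and 1813 in embryos. Its neighbor hsp-16.41 (Y46H3A.2) had 24.9, 87.4 and 847 in young adults, 446 and 925 in aging adults, and 1192, 799 and 1543 in embryos. In deposited intensity young adult replicate 3 was thus at the level of the aging adults for both genes, and in normalized expression above both of them (45.5 against 11.5 and 29.9 for hsp-16.2), while young adult replicates 1 and 2 were low and one of them, for hsp-16.41, was below noise.

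The same arrays were high on the probe set that hsp-16.48 (T27E4.3, chromosome V) shares with hsp-16.49, where the signal of the copies cannot be separated. It had intensities of 152, 133 and 2311 in young adults, 1172 and 2267 in aging adults, and 2556, 2369 and 2973 in embryos. The probe set of hsp-16.1 and hsp-16.11, which flank this pair on the chromosome, had 71.8, 52.1 and 1248 in young adults, 550.2 and 2180 in aging adults, and 2113, 2042 and 2450 in embryos. On all 4 hsp-16 probe sets, aging adult replicate 2 was the higher of the 2 aging pools. The plot of hsp-16 intensities by array shows these values.

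**Figure D1:**
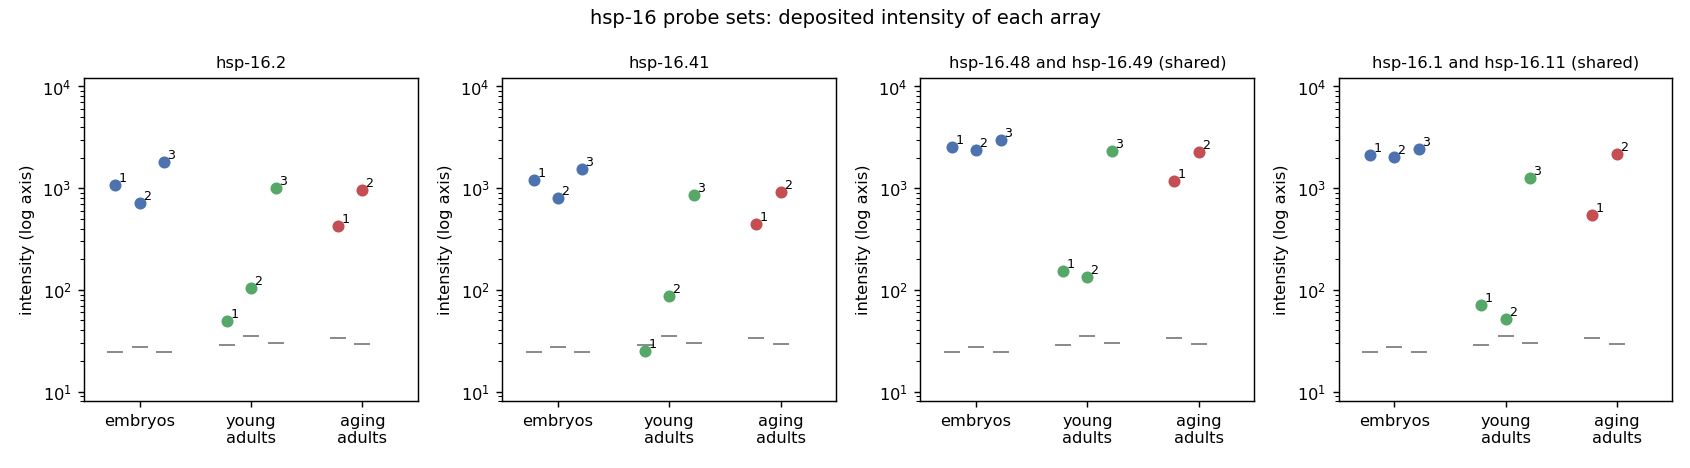
Deposited intensity (log axis) of the 4 hsp-16 probe sets on each array, by life stage, with the replicate number beside each point and the noise level of the array as a grey dash. On every panel young adult replicate 3 lies far above young adult replicates 1 and 2, and within the range of the aging adults or just above it.

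In normalized expression, young adult replicate 3 exceeded the higher of the other two young pools 9.04-fold for hsp-16.2, 9.27-fold for hsp-16.41, 13.3-fold for hsp-16.48 and hsp-16.49, and 15.2-fold for hsp-16.1 and hsp-16.11. Of the 10158 probe sets above noise on that array, 224 (2.205%) exceeded it at least 4-fold and 111 at least 8-fold. Aging adult replicate 2 exceeded aging adult replicate 1 by 2.59-fold, 2.36-fold, 2.20-fold and 4.50-fold on the same 4 probe sets, and at least 2-fold on 389 of 11566 probe sets above noise (3.363%). The SD of the log2 values among young adults was 2.16 for hsp-16.2 and 2.25 for hsp-16.48 and hsp-16.49, where the median over the 8449 probe sets above noise on all 3 arrays was 0.378. Embryo pools lay closer together, with an SD of 0.692 for hsp-16.2, 0.519 for hsp-16.41 and 0.195 for hsp-16.48 and hsp-16.49 (median of all, 0.230).

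With this spread, no hsp-16 difference between the ages passed the test. For hsp-16.2 the normalized expression of young adults was 17.7 ± 24.1 (SD, n = 3), against 20.7 ± 12.98 (SD, n = 2) in aging adults, and the log2 change was 1.14 (95% interval -1.66 to 3.94, limma adjusted p = 0.611). For hsp-16.41 the change was 1.64 (-1.44 to 4.72, adjusted p = 0.494) and for hsp-16.48 and hsp-16.49 it was 1.43 (-1.32 to 4.18, adjusted p = 0.504). These intervals hold both no change and an increase of several-fold. The calls rested on 1 array. Without young adult replicate 3, which was known by then to be the high one, the change was 2.99 (adjusted p = 0.0475) for hsp-16.41, 2.73 (adjusted p = 0.0101) for hsp-16.48 and hsp-16.49, and 2.36 for hsp-16.2, still not past the test. Because that array stood out on these same values, the p values without it are no independent test.

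Embryos were at 19.8 ± 8.93 (SD, n = 3) for hsp-16.2, and their differences from young adults were 1.13 for hsp-16.2 (adjusted p = 0.400), 1.65 for hsp-16.41 (adjusted p = 0.267) and 1.30 for hsp-16.48 and hsp-16.49 (adjusted p = 0.324). Without young adult replicate 3 all 3 were under the threshold, at 2.34 (adjusted p = 0.0179), 2.999 (adjusted p = 0.00919) and 2.60 (adjusted p = 0.00158). Here too the array left out was already known to be the high one, so that these p values are no independent test. Under quantile normalization that of hsp-16.48 and hsp-16.49 passed with all arrays (2.50, adjusted p = 0.0452). Between embryos and aging adults the changes were -0.01, 0.01 and -0.13 (adjusted p = 0.994, 0.997 and 0.939), and the intervals reached from about 3 below 0 to about 3 above it on the log2 scale. The fit shares 1 spread per probe set over all 8 arrays, so that the spread of young adults enters these intervals. For hsp-16.48 and hsp-16.49 the SD was 0.195 in embryos and 0.804 in aging adults, against 2.25 in young adults.

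The hsp-16 probe sets moved together from array to array. Pearson's r of their log2 values was between 0.915 and 0.982 for each pair over the 8 arrays, and between 0.913 and 0.989 over the 5 adult arrays, with no p given because the arrays share groups and near-identical copies can cross-hybridize. Among single-gene probe sets, chosen after the values were seen, those closest to the mean of the hsp-16 members over the 8 arrays were fbxa-141 (r = 0.977), nhr-61 (r = 0.969) and tsp-13 (r = 0.960). The r of fbxa-141 rests in part on values below noise, 0.78 and 1.58 on young adult replicates 1 and 2 and 20.9 on aging adult replicate 1. For nhr-61, a nuclear hormone receptor gene, intensities were 37.8, 53.2 and 166 in young adults, 156 and 201 in aging adults, and 376, 313 and 305 in embryos.

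Among the other small heat shock protein genes, hsp-17 was set apart in embryos. Its intensities were 295, 127 and 1087 in young adults and 571 and 1400 in aging adults, with the same high arrays as hsp-16, but 172, 202 and 211 in embryos. Its r with the hsp-16 probe sets was 0.735 to 0.933 over the adult arrays and 0.132 to 0.280 over all 8. Relative to the array median, embryos differed by -2.39 on the log2 scale from young adults (adjusted p = 0.0331) and by -3.02 from aging adults (adjusted p = 0.0264). Deposited intensities of embryos and young adults overlapped (ratio of means 0.387), and those of embryos and aging adults did not (0.198). Of the 6 probe sets of this list that are no members, 0 were called between young and aging adults (7.42% of all were), 3 were lower in embryos than in young adults (30.4% of all were) and 2 lower than in aging adults (26.6% of all were).

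Closest to the threshold between the ages in that list were Y55F3BR.6 (log2 fold change -0.94, adjusted p = 0.0842) and ZK1128.7 (-1.29, adjusted p = 0.132). Y55F3BR.6 had intensities of 252, 245 and 329 in young adults, 301 and 189 in aging adults, and 36.6, 34.9 and 54.6 in embryos. Relative to the array median it was 19.6-fold lower in embryos than in young adults (adjusted p = 1.98e-05), with a ratio of mean deposited intensities of 0.153. The probe set of hsp-16.21 was below noise on every array.

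Partners of the small heat shock proteins were read on the same arrays. The stress-inducible HSP70 genes F44E5.4 and F44E5.5, named after their values were seen, share 2 probe sets. On one the intensities were 21.9, 52.0 and 2254 in young adults, 109.7 and 1426 in aging adults, and 5909, 5036 and 6582 in embryos. On the other they were 29.0, 52.9 and 1958 in young adults, 112.9 and 1083 in aging adults, and 3685, 3464 and 3930 in embryos. The inducible HSP70 gene hsp-70, likewise, had 24.9, 40.9 and 1110 in young adults, 262 and 996 in aging adults, and 248, 126 and 377 in embryos. In adults these genes followed the order of hsp-16: young adult replicate 3 and aging adult replicate 2 were the high pools. The constitutive HSP70 gene hsp-1 was also highest on these pools within each age, but with a smaller gap, at 1753, 1002 and 2151 in young adults and 4090 and 5275 in aging adults. Other partners varied. In young adults 1 hsp-110 probe set had 263, 211 and 753 and 1 dnj-13 probe set 354, 503 and 1353, while 1 dnj-19 probe set had 260, 312 and 305.

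**Figure D2:**
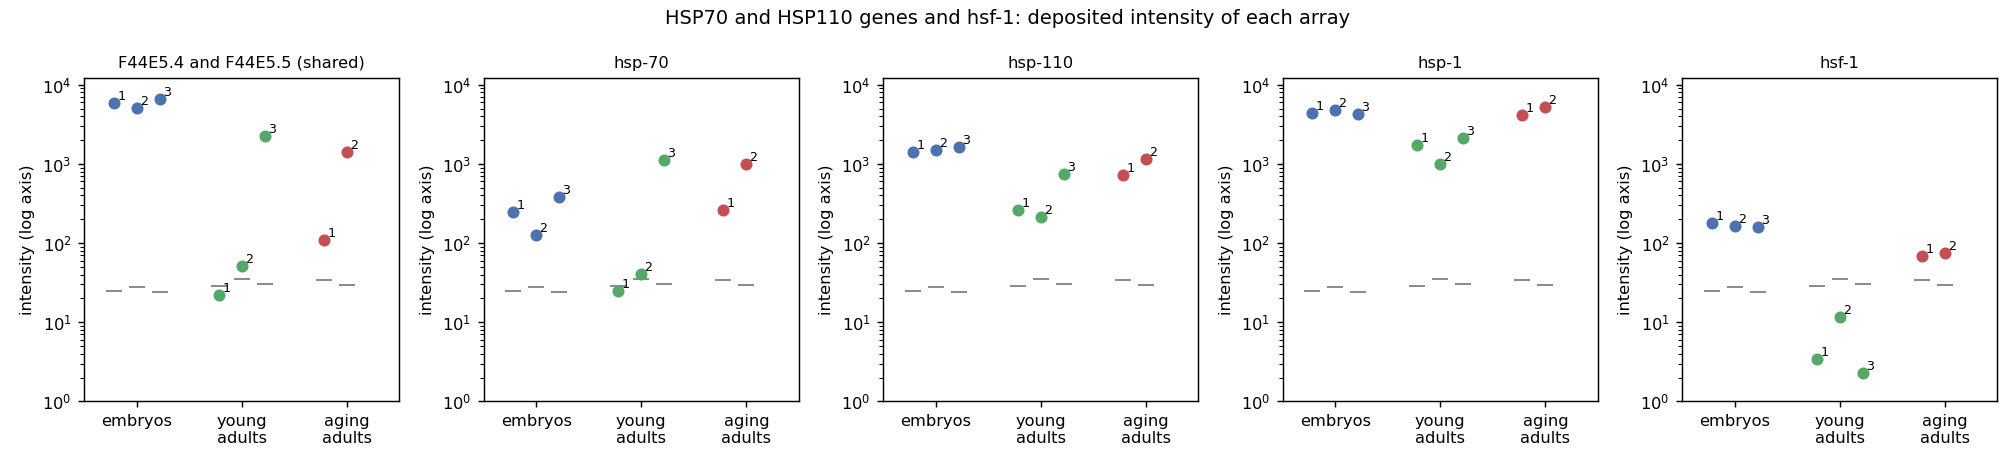
Deposited intensity (log axis) of F44E5.4 and F44E5.5 (1 of their 2 shared probe sets), hsp-70, hsp-110, hsp-1 and hsf-1 on each array, with the replicate number beside each point and the noise level as a grey dash. Young adult replicate 3 reaches 2254 for F44E5.4 and F44E5.5 and 1110 for hsp-70, against at most 52.0 and 40.9 on the other young adult arrays, while the hsf-1 probe set shown is below noise on all 3.

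Of the 20 probe sets of the 13 HSP70, HSP110, HSP90 and HSP40 partners, 0 were called between young and aging adults, where 7.42% of all probe sets were. The 2 with the smallest adjusted p were dnj-19, an HSP40 gene (log2 fold change 0.78, adjusted p = 0.0514), and hsp-90 (1.43, adjusted p = 0.0705). In embryos 7 were higher (22.7% of all were) and 2 lower (30.4% of all were) than in young adults, and 3 were higher (17.7% of all were) and 1 lower (26.6% of all were) than in aging adults. Among the higher in both comparisons was 1 dnj-12 probe set that was below noise on every array, so that its calls rest on floored adult values. The lower ones against young adults were both of unc-23. Their mean deposited intensities in embryos were 1.10 and 1.32 times those of young adults, so that this direction came with the scaling. Among 19 probe sets of 9 regulators, 1 was higher in aging than in young adults (2.94% of all were) and 0 were lower (4.49% of all were). The higher one was 1 of the 2 of hsf-1, at least 1.37-fold (adjusted p = 0.0351). Its intensities were 3.40, 11.6 and 2.26 in young adults, all below noise, and 67.9 and 75.8 in aging adults. On the other hsf-1 probe set, where young adults were also below noise, no fold is given (adjusted p = 0.470).

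The hsp-12 genes differed from each other in stage. Expression of hsp-12.1 (T22A3.2, chromosome I) was an embryo signal: intensities were 905, 854 and 817 in embryos, 57.5, 32.4 and 64.6 in young adults, and 25.5 and 22.95 in aging adults. The groups did not overlap, but young adult replicate 2 and both aging adult arrays were below noise. Relative to the array median, embryos exceeded young adults 5.87-fold (2.55 on the log2 scale, SE 0.28, adjusted p = 0.00029) and aging adults at least 15.4-fold (adjusted p = 8.43e-05). Between the ages it was called lower in aging adults (adjusted p = 0.0192), by 2.63-fold after scaling with aging adults set at noise. This fold is no strict bound, because young adult replicate 2 was taken at its value below noise. That call ended when either aging pool was left out (adjusted p = 0.0881 without aging adult replicate 1, 0.113 without aging adult replicate 2) and without rescaling (-1.03, adjusted p = 0.0597).

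Purified HSP-12.2 lacks the chaperone activity of larger family members in the test tube. Its gene hsp-12.2 (C14B9.1, chromosome III) was well above noise throughout, with intensities of 972, 1262 and 1070 in young adults, 1023 and 722 in aging adults, and 1720, 1779 and 2330 in embryos. Deposited intensities of the 2 ages overlapped, and normalized expression did not: young adults had 53.4 ± 6.11 (SD, n = 3) and aging adults 25.0 ± 3.87 (SD, n = 2), a 2.14-fold drop (-1.10 on the log2 scale, SE 0.19, adjusted p = 0.0177). Without rescaling the change was -0.35 (adjusted p = 0.326), and under quantile normalization -0.66 (adjusted p = 0.265). Leaving out aging adult replicate 2 ended the call too (-0.94, adjusted p = 0.130).

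In embryos hsp-12.2 stood at a normalized expression of 31.9 ± 4.88 (SD, n = 3), below that of young adults (-0.75 on the log2 scale, adjusted p = 0.00817), although every deposited intensity of embryos was higher than those of young adults. The direction turned with the scaling, to 0.71 under quantile normalization (adjusted p = 0.0626) and to 0.81 without rescaling (adjusted p = 0.0143). No direction can therefore be given for hsp-12.2 between embryos and young adults.

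The neighbors hsp-12.3 (F38E11.1) and hsp-12.6 (F38E11.2) lie side by side on chromosome IV. The intensity of hsp-12.3, whose product also lacks chaperone activity when purified, was 105, 502 and 718 in young adults, 307 and 448 in aging adults, and 137, 214 and 222 in embryos. Young adult replicate 1 was the low one here, so that the SD of the log2 values among young adults was 1.38. Between the ages the change was -0.60 (95% interval -2.33 to 1.12, adjusted p = 0.667). Embryos were 5.31-fold lower than young adults relative to the array median (log2 fold change -2.41, SE 0.65, adjusted p = 0.0182), a call lost without embryo replicate 1 (adjusted p = 0.0604), without young adult replicate 2 (adjusted p = 0.0585) and without rescaling (-0.85, adjusted p = 0.377).

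Only in adults was hsp-12.6 above noise. Its intensities were 9.48, 117 and 49.5 in young adults, the first of them below noise, and 175 and 233 in aging adults, so that deposited intensities of the ages did not overlap. In embryos they were 10.3, -5.83 and 6.88, all below noise. After scaling, young adults had 2.79 ± 2.59 (SD, n = 3) and aging adults 5.96 ± 1.71 (SD, n = 2), and these ranges overlapped (log2 fold change 1.66, adjusted p = 0.781). With values below noise raised to the noise level the change was 1.13 (adjusted p = 0.0171), a setting in which the median of all probe sets was -0.73. Embryos against young and aging adults gave adjusted p = 0.0641 and 0.0531, not past the test, and the bound on the fold of aging adults over embryos was 13.9. The embryo value below 0 entered these fits at the floor of 0.01. With 0.1 added to the normalized values the adjusted p became 0.0145 and 0.00615.

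The muscle gene hsp-25 (C09B8.6, chromosome X) differed between all stages. Its intensities were 2285, 2564 and 3010 in young adults, 2223 and 1580 in aging adults, and 986, 973 and 999 in embryos, with no overlap between groups. Scaled, young adults had 127 ± 9.58 (SD, n = 3) and aging adults 54.5 ± 8.18 (SD, n = 2), a 2.33-fold drop (-1.22 on the log2 scale, SE 0.15, adjusted p = 0.00592). It was 16.22 ± 1.21 (SD, n = 3) in embryos, 7.81-fold lower than in young adults (adjusted p = 1.14e-05) and 3.35-fold lower than in aging adults (adjusted p = 0.000159). In deposited intensity, the embryo mean of hsp-25 was 0.376 times that of young adults and 0.518 times that of aging adults. The SD of its log2 values among young adults, 0.107, was smaller than that of all but 6.07% of probe sets above noise, while among aging adults it was 0.217, where the median of all was 0.168.

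How far hsp-25 fell with age depended on the scaling. The ratio of mean deposited intensities was 0.726, and the log2 change was -0.47 without rescaling (adjusted p = 0.136) and -0.55 under quantile normalization (adjusted p = 0.127). Of 11 marker probe sets of body wall muscle, 7 were lower in aging adults (4.49% of all were) and 0 higher (2.94% of all were), with a median log2 fold change of -1.39. Among the lower were 2 of the 3 of unc-15, which encodes paramyosin, and the troponin T gene tnt-2 (-2.19, adjusted p = 0.00644), while unc-54 and myo-3 did not pass (adjusted p = 0.116 and 0.0580). The summed deposited intensity of the 11, 24260 to 31309 in young adults, was 13870 to 19601 at day 6. Their part in the change of hsp-25 was not tested.

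The gene hsp-43 (C14F11.5, chromosome X) was lowest in embryos and highest in aging adults in deposited intensity. It had intensities of 160, 171 and 207 in embryos, 808, 475 and 1049 in young adults, and 2646 and 3886 in aging adults, and none of the groups overlapped. Relative to the array median it was 12.24-fold lower in embryos than in young adults (log2 fold change -3.61, SE 0.32, adjusted p = 0.00012) and 31.7-fold lower than in aging adults (-4.98, SE 0.36, adjusted p = 8.89e-05). Its mean deposited intensity in embryos was 0.231 times that of young adults and 0.0549 times that of aging adults.

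Between the ages hsp-43 was the member closest to an increase. Scaled, young adults had 37.7 ± 13.3 (SD, n = 3) and aging adults 95.8 ± 34.0 (SD, n = 2), which is 2.59-fold apart (1.37 on the log2 scale, 95% interval 0.51 to 2.23), and the adjusted p was 0.0757. The mean deposited intensity was 4.20 times as high in aging adults. It was past the threshold with quantile normalization (1.66, adjusted p = 0.0327), without rescaling (2.12, adjusted p = 0.0134) and without young adult replicate 3 (1.58, adjusted p = 0.0481).

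**Figure D3:**
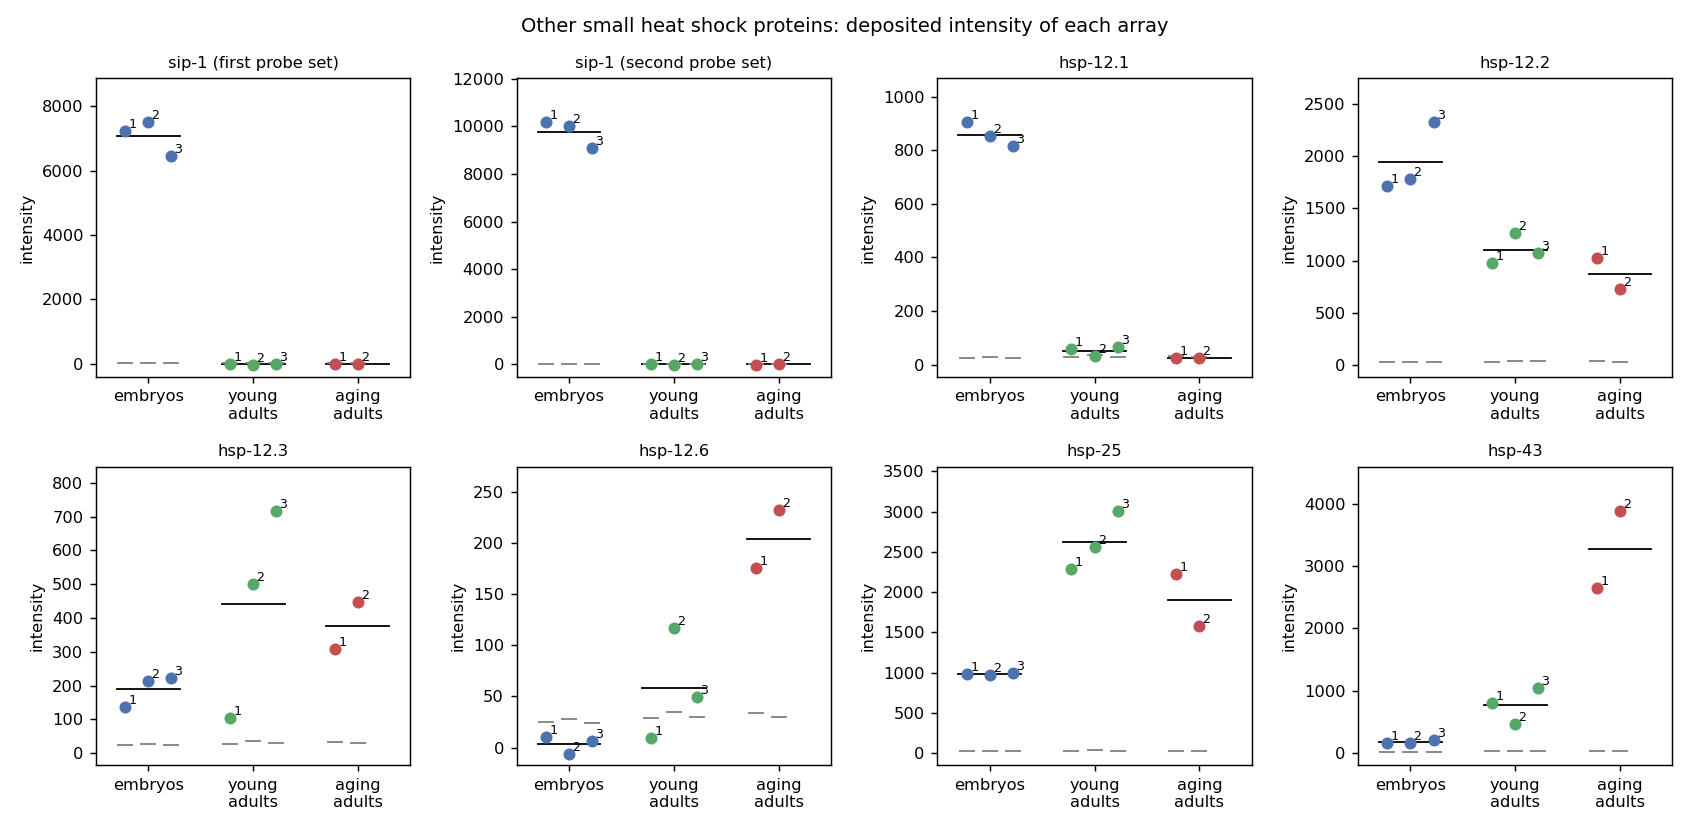
Deposited intensity (linear axis, each panel with its own scale) of the members outside hsp-16 on each array, by life stage, with replicate numbers, the group mean as a black line and the noise level as a grey dash. Both sip-1 probe sets and hsp-12.1 are high in embryos alone, hsp-25 and hsp-43 are higher in adults, and hsp-12.6 is above noise on adult arrays only.

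The gene sip-1 (F43D9.4, chromosome III) was the member that set embryos apart from these adults most clearly. On its first probe set intensities were 7243, 7514 and 6446 in embryos and between -22.9 and -2.69 on the 5 adult arrays. On the second they were 10179, 10007 and 9087 in embryos and between -10.7 and 5.04 in adults. No adult array reached noise on either. The first was at least 76.6-fold higher in embryos than in young adults (adjusted p = 1.87e-05) and at least 127-fold higher than in aging adults (adjusted p = 3.97e-05). The second was at least 106-fold (adjusted p = 0.000446) and at least 175.2-fold higher (adjusted p = 0.00301). Between the ages no fold is given.

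Oocyte and maternal markers fell on the same side. Against young adults, 10 of their 11 probe sets were higher in embryos (22.7% of all were). Against aging adults, 8 were (17.7% of all were). Their summed intensity was 111 to 137 in young adults, 357.5 to 445 in aging adults and 13978 to 19191 in embryos. In young adults 9 of the 11 were above noise on no array, among them oma-1, rme-2 and pos-1. In aging adults both pos-1 probe sets were above noise, at 80.4 to 88.2, while sip-1 was not. Embryo and early zygotic markers also lay on the embryo side. Of their 9 probe sets, 6 passed as higher against young adults (22.7% of all did) and 4 against aging adults (17.7% of all did). In either comparison 0 were lower, where 30.4% and 26.6% of all were. Their summed intensity was 742.7 to 827.7 in young adults, 2052 to 2261 in aging adults and 6309 to 8774 in embryos. Whether the sip-1 signal was maternal or embryonic was not tested. The adults were also without a proliferating germ line, so that its absence and the adult stage cannot be told apart for sip-1. The single-gene probe sets most like the first of sip-1 over the 8 arrays were ZK829.9, C01G6.3 and F48E3.6 (r = 1.0000 each), and 1339 of 20756 had an r over 0.95. Those most like the second were EEED8.14, hcp-2 and cutl-25 (r = 0.9996, 0.9995 and 0.9995). For hsp-12.6 they were cyp-29A3, nhr-230 and ZK353.4 (r = 0.9946, 0.9903 and 0.9881), with 74 over 0.95. Values at the floor of 0.01 enter these coefficients, which describe the arrays of 3 stages and carry no p.

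**Figure D4:**
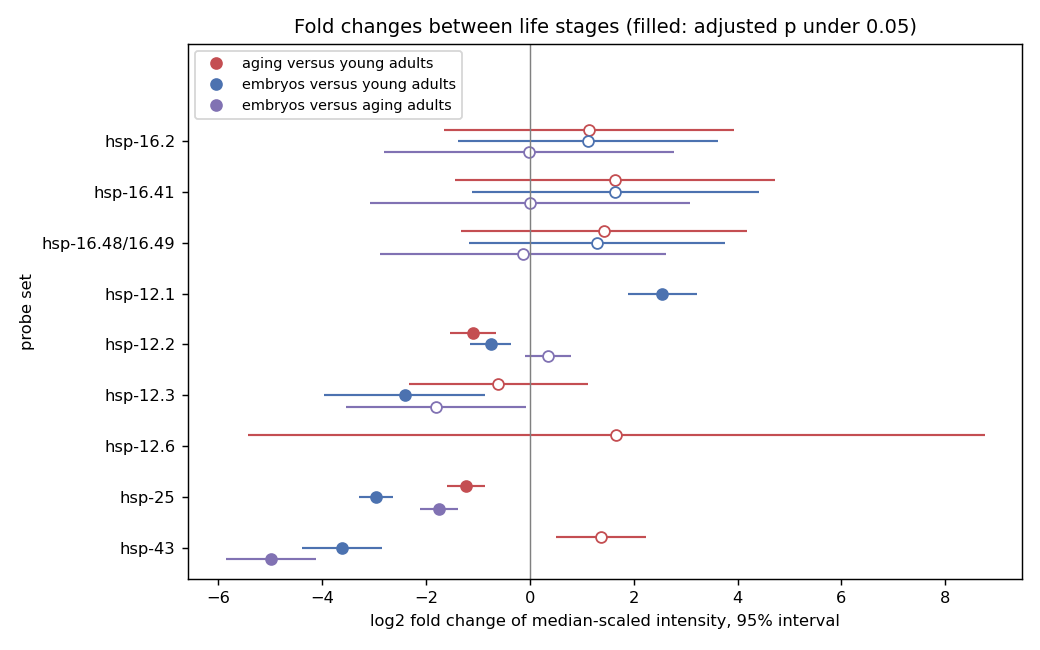
Log2 fold change of normalized expression (x axis) with its 95% interval for the members with a measured fold, in aging against young adults (red), embryos against young adults (blue) and embryos against aging adults (purple), filled where the adjusted p is under 0.05. The hsp-16 intervals all include 0 and are wider than those of the other members shown except hsp-12.6, which was below noise on 1 young adult array, while those of hsp-25 are the narrowest.

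The plot of fold changes sets the members side by side. Folds against a group below noise are left out of it, which removes sip-1, the comparisons of hsp-12.1 with aging adults and those of hsp-12.6 with embryos. Between the ages hsp-25 passed the test with a change of -1.22 and an SE of 0.15, while the hsp-16 members did not with changes of 1.14 to 1.64 and an SE of 1.16 to 1.30.

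Members shifted with the scaling in the comparison of ages. Without rescaling, which leaves the higher medians of the aging adult arrays in the data, the median log2 fold change of all probe sets was 0.77, 17.1% were higher and 1.97% lower. Members then gave 1 higher probe set, hsp-43, and 0 lower. The changes of hsp-25 (-0.47) and hsp-12.2 (-0.35) no longer passed the test, and that of hsp-43 was 2.12. The direction of hsp-12.3 turned to 0.15.

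**Figure D5:**
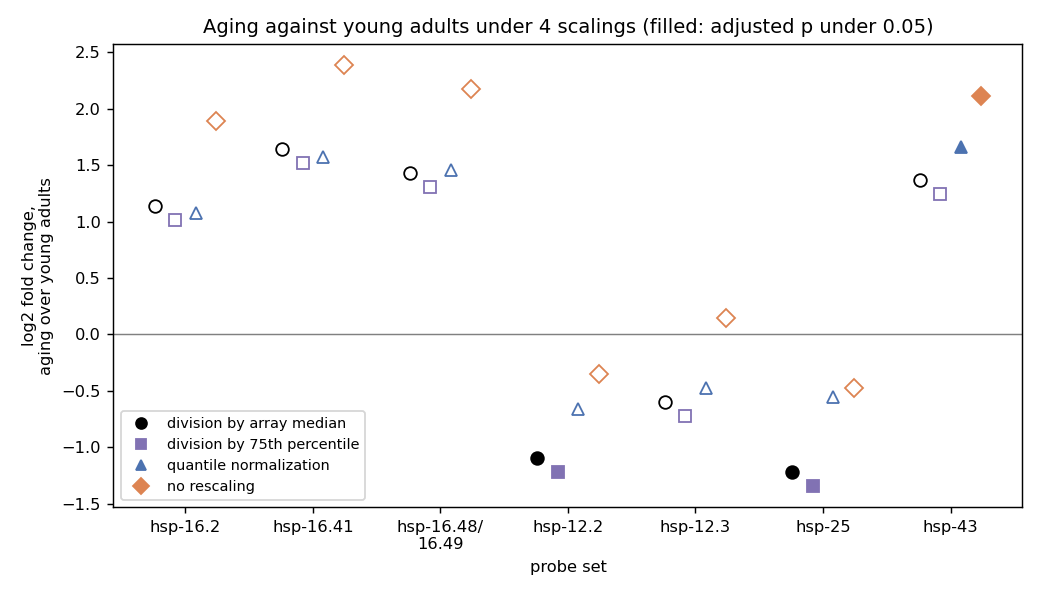
Log2 fold change of aging over young adults (y axis) for 7 member probe sets under 4 scalings of the arrays, filled where the adjusted p is under 0.05. The 3 hsp-16 probe sets are open under every scaling, hsp-12.2 and hsp-25 are filled under division by the median or the 75th percentile, and hsp-43 is filled under quantile normalization and without rescaling.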

How the data were processed

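Total RNA of 8 pools was hybridized to Affymetrix arrays by the authors, who used GeneChip Operating Software and Rosetta Resolver. Intensity values as deposited are linear and background-subtracted, and some are negative. The step that made them is not given in the sources used here. A second deposited table holds the authors' fold changes and p values for 3 comparisons and was not used.

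Values under 0.01 were raised to 0.01, arrays were scaled by their medians, and log2 was taken. All 8 arrays were fitted per probe set with limma 3.58.1 (R 4.3.3), a variance trend and no covariates, and p was adjusted by Benjamini-Hochberg over 22548 probe sets at 0.05. No filter was used. The annotation gives 20766 probe sets 1 gene, 887 several and 895 none. Chromosomes and neighbors came from RefSeq (WBcel235). The method was tested on simulated data. Array number limits the precision.

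Groups came from the sample titles. Members, lists and the noise level were chosen with earlier results of these data known. Named were all members, hsp-16 genes sharing a probe set or promoter with them, called members of 3 lists (other small heat shock proteins, regulators, partners; at most 4 each, or the 2 with the smallest adjusted p), and the 3 genes most like each of the 3 member probe sets that varied most between stages (2 of sip-1 and that of hsp-12.6). Markers of 8 tissues or stages were read as checks. Alternatives were 3 other scalings, a noise floor, an added 0.1, a filter keeping probe sets above noise on at least 2 arrays, fits of 2 groups, a replicate block, no trend, gene medians, an unadjusted p below 0.001, and leaving out each array.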

Additional observations from a re-analysis of the deposited data

How the results depend on the processing

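The count of members higher in aging than in young adults, 0 with all settings as reported, was 1 under quantile normalization, 1 without rescaling and 2 with values raised to the noise level, and 0 to 3 with 1 array left out (3 without young adult replicate 3, 1 without aging adult replicate 1). The count lower, 3, was 1 under quantile normalization, 0 without rescaling, 5 with values raised to the noise level, 0 with only the 2 groups compared, 1 with a replicate block, and 1 to 3 with 1 array left out (1 without aging adult replicate 2). In embryos against young adults, the count higher, 3, was 3 to 6 with 1 array left out (6 without young adult replicate 3). The count lower, 4, was 2 without rescaling, 2 at an unadjusted p below 0.001, and 3 to 5 with 1 array left out. Against aging adults, the count lower, 2, was 4 with values raised to the noise level. Shares of all probe sets moved too. Higher in aging than in young adults were 2.95% under quantile normalization and 17.1% without rescaling. With values raised to the noise level they were 7.37%, and without young adult replicate 3 they were 6.68%. Lower there were 3.26% under quantile normalization, 1.97% without rescaling and 58.4% with values raised to the noise level. In embryos 24.7% were higher than in young adults without young adult replicate 3, and 11.8% were lower without rescaling.

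Directions turned in hsp-12.3 between the ages without rescaling (0.15) and in hsp-12.2 between embryos and young adults under quantile normalization (0.71) and without rescaling (0.81). Between embryos and aging adults, hsp-16.2 went from -0.01 to 0.71 under quantile normalization, 0.80 without rescaling, 0.079 with the 75th percentile, 0.35 without embryo replicate 2 and 0.67 without aging adult replicate 2 (-0.70 to 0.67 with 1 array left out). Likewise hsp-16.41 went from 0.01 to -0.77 with a replicate block, -0.08 without embryo replicate 1, -0.19 without embryo replicate 3 and -0.61 without aging adult replicate 1 (-0.61 to 0.63 with 1 array left out), and hsp-16.48 with hsp-16.49 went from -0.13 to 1.03 under quantile normalization, 0.68 without rescaling and 0.44 without aging adult replicate 2 (-0.70 to 0.44 with 1 array left out). The causes were not tested.

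Of the single changes recomputed, 521 kept their direction and side of the threshold, 27 newly passed, 19 no longer passed and 15 turned. Both sip-1 probe sets, hsp-25 and hsp-43 kept their calls for embryos against either adult stage in every setting run, except that the gene-median setting merges the sip-1 probe sets. With only the 2 groups compared, the calls between the ages were lost for hsp-12.1 (adjusted p = 0.103), hsp-12.2 (adjusted p = 0.0624) and hsp-25 (adjusted p = 0.0628). Without a variance trend hsp-12.2 was lost (adjusted p = 0.0644).

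Replicate numbers did not pair the arrays: deviations from the group means of same-numbered arrays correlated between -0.05 and 0.15 over 7322 probe sets. With the number as a block, hsp-12.1 (adjusted p = 0.0649) and hsp-12.2 (adjusted p = 0.0875) lost their calls between the ages. With quantile normalization, 20.6% of all probe sets were higher and 20.2% lower in embryos than in aging adults. Without rescaling, 40.6% were higher and 11.8% lower than in young adults, and 26.4% and 13.9% than in aging adults. In young adults 41.4% to 45.1% of probe sets were above noise, which limits what can be read for hsp-12.1, hsp-12.6 and hsp-16.41 there.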

Other observations

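Young adult replicate 3 also differed from young adult replicates 1 and 2 in some muscle genes. The intensity of unc-54, the main myosin heavy chain of body wall muscle, was 5724, 4860 and 1892 on the 3 arrays, and that of myo-3, its partner in thick filaments, was 461, 489 and 211. One unc-15 probe set had 4647, 4850 and 2333, while another had 4725, 5455 and 5664. On that array hsp-25, a muscle small heat shock protein, had 3010, the highest of the 3. Whether these values and those of hsp-16 on this array are connected was not tested.

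Cuticle and hypodermis markers were 3 of 6 lower in aging than in young adults, where 4.49% of all probe sets were. Their summed intensity, 14184 to 16557 in young adults, was 750.4 to 1018 at day 6. Most of the young adult sum came from col-140 and col-19 (means 10093 and 4501). The lin-26 probe sets went the other way, by 0.19 and 0.64 on the log2 scale, not past the test. Intestine markers were 2 of 11 lower, with sums of 83783 to 87551 and 81401 to 82752 that came mostly from vit genes. Among the others ges-1 was lower (-1.77, adjusted p = 0.0211), while the elt-2 probe sets changed by 1.01 and 1.39, not past the test. Neuron markers were 0 of 6 higher or lower (7.42% of all were), at 2729 to 4889 and 6307 to 6657. The part of these markers in the changes of the small heat shock proteins was not tested.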
